A study of Mus musculus with 21 samples.

Results

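The IL-1 family is described here through 8 genes of mouse colon, chosen by name from the 24062 genes of the count table: the ligands Il1a, Il1b, Il18 and Il33, the receptor antagonist Il1rn, and the receptor genes Il1r1, Il1r2 and Il1rl1. All 8 were in the table and all 8 passed the filter on low counts, among 15936 genes tested. RNA was sequenced in 21 colon libraries of C57BL/6 mice, in 7 groups of 3. The groups were wild-type male normal colon, wild-type male tumour, wild-type female normal colon, wild-type female tumour, App NL-G-F knock-in male normal colon, knock-in male tumour and knock-in female normal colon. App NL-G-F places Alzheimer's disease mutations in the mouse's own gene for amyloid precursor protein. Tumours followed AOM/DSS, the carcinogen azoxymethane combined with dextran sulfate sodium, an irritant of the colon epithelium. The labels mark the normal libraries as untreated, while the series' design text speaks of tissue beside tumours or of colon without tumours, so they are called normal colon. A knock-in female tumour group was not analysed here. Neither the ages of the mice nor whether 2 libraries share an animal is given in the sources used here, and p-values therefore measure only the spread between these libraries, which may be technical.

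IL-1 alpha and IL-1 beta are inflammatory cytokines that act on the same receptor, encoded by Il1r1, which signals through the adaptor MyD88 to NF-kB. The antagonist from Il1rn occupies this receptor without signalling, and the product of Il1r2 is a decoy that binds the cytokines without signalling. IL-18 is made in large part by the colon epithelium and, like IL-1 beta, is cut to its active form by caspase-1 in inflammasomes. IL-33 is a nuclear alarmin released from damaged barrier and stromal cells, and its receptor ST2 is encoded by Il1rl1. Regulatory T cells, mast cells and type 2 innate lymphoid cells are known to carry ST2.

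The 8 genes lie on 4 chromosomes of the mm10 genome, by a GENCODE annotation of that build. The 3 receptor genes lie on the plus strand of chromosome 1: Il1r2 from 40074079 to 40125231, Il1r1 from 40225080 to 40317257 and Il1rl1 from 40429570 to 40465415. Il1rn lies on the plus strand of chromosome 2 from 24336853 to 24351494. Il1a (129299610 to 129309972) and Il1b (129364570 to 129371139) stand side by side on the minus strand of the same chromosome. Il18 lies on chromosome 9 from 50554827 to 50581840, and Il33 on chromosome 19 from 29925114 to 29960718. Annotated genes on the opposite strand overlap Il1a (Gm14023), Il1b (Il1bos), Il1r2 (Gm16894) and Il18 (Bco2 and Tex12). Whether counting used strand is not given in the sources used here, so reads of a gene and its opposite neighbour may not be told apart. Mean levels of these neighbours in CPM (counts per 1000000, scaled to library size) stayed at or below 17.7 for Bco2, 3.48 for Tex12, 2.18 for Gm14023, 1.81 for Gm16894 and 1.43 for Il1bos in each group.

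The promoters of 3 genes are shown because Il1a and Il1b, which are neighbours, passed the test below together in wild-type mice and Il1rn, their antagonist, did not. Each run holds the 250 bases before a RefSeq start (GRCm38.p6), 5′ to 3′ on the gene's strand, and capitals mark matches to a motif.
Il1a, chr2:129309973-129310222, minus strand: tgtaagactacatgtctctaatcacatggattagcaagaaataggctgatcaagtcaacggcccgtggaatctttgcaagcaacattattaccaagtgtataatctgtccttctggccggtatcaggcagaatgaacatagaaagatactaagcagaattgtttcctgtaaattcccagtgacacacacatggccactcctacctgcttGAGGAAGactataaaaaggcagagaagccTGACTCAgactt
Il1b, chr2:129371140-129371389, minus strand: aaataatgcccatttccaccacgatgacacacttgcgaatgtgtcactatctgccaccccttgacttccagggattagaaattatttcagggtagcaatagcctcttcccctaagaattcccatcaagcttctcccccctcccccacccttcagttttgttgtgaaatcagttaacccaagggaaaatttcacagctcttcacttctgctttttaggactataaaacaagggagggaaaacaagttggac
Il1rn, chr2:24336610-24336859, plus strand: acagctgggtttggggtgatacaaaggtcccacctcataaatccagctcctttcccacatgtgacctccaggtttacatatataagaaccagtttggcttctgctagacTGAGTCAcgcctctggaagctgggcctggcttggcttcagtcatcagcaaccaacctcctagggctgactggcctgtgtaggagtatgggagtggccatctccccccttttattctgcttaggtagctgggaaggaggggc
All 8 genes had at least 1 such window, 13 in all, and 4 motifs were searched on both strands: the NF-kB consensus, AP-1 (TGANTCA), TCF/LEF (CTTTGAT) and PU.1 (GAGGAAG). Matches were found in 3 of the 13 windows, and none overlapped another. In Il1a an AP-1 match lay 12 to 6 bases before the start and a PU.1 match 41 to 35 bases before it. In Il1rn an AP-1 match lay 141 to 135 bases before the most upstream of its starts, the one shown. The windows of the downstream Il1rn starts held no match. The remaining match was an NF-kB consensus 232 to 223 bases before the downstream of the Il1r1 starts. Among 32851 promoter windows of the same length, 7.25% held the NF-kB consensus, 6.75% AP-1, 3.21% TCF/LEF and 10.6% PU.1. A match describes letters only and shows neither binding nor its absence.

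The libraries held from 3414123 gene counts (wild-type male tumour replicate 2) to 26174008 (wild-type female normal replicate 1). App itself averaged from 510 to 943 CPM in the 7 groups, and gene counts do not show which allele was read. In 7 libraries Krt5, a keratin of squamous epithelium, exceeded 100 CPM: 1 of wild-type male normal colon, 1 of wild-type male tumour, 1 of knock-in male normal colon, 2 of knock-in male tumour and 2 of knock-in female normal colon. No wild-type female library was among them, with Krt5 at 35.1 CPM at most. Counts of called family genes and pathway genes that moved by over 1.5 times without these 7 libraries are given both ways. The muscle layer also differed: the summed level of 8 smooth muscle markers, all detected, was 1984 to 9728 CPM in the normal libraries and 176 to 1006 CPM in the tumours. The summed level of 7 of 8 listed markers of differentiated colonocytes (Ms4a12 was not matched) was 964 to 5453 CPM in normal colon and 233 to 1198 CPM in tumours. In bulk tissue, fewer cells of a type and less RNA per cell cannot be told apart.

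In tumours the inflammatory ligands, Il33 and the receptor genes were mostly higher than in normal colon of the same sex and genotype, Il18 was lower in the wild-type mice, and Il1rn passed the test nowhere. In wild-type males 6 of the 8 genes passed edgeR's quasi-likelihood test at a Benjamini-Hochberg adjusted p under 0.05. Higher were 5 of them (Il1a, Il1b, Il1r2, Il33 and Il1rl1) and lower was Il18. Of all genes tested in that comparison, 35.7% passed, 16.5% as higher and 19.3% as lower. In knock-in males 4 of 8 passed, all higher (Il1a, Il1r1, Il33 and Il1rl1), against 20.4% of all genes, 10.4% higher and 9.97% lower. In wild-type females 7 of 8 passed, 6 higher and Il18 lower, against 49.1% of all genes, 25% higher and 24% lower. Il1a, Il33 and Il1rl1 passed in all 3 comparisons. The median log2 fold change of the 8 genes was 1.64, 1.54 and 3.06 in wild-type males, knock-in males and wild-type females, where the median of all genes was 0.01 each time.

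These counts did not rest equally firmly on the libraries. In wild-type females 7 of 8 passed under every alternative run. In wild-type males the count fell to 3 without normal replicate 1, normal replicate 3 or tumour replicate 2, to 2 when the 2 groups were fitted alone, and to 1 (Il18) without the Krt5 libraries. With the 2 groups alone, the log2 fold changes of the genes that lost their call were 2.27 for Il1a, 2.69 for Il1b, 1.96 for Il1r2 and 2.50 for Il1rl1, and without the Krt5 libraries they were 2.55, 2.89, 2.26 and 2.11, with Il33 at 1.02. Over all genes, 5697 passed in the full fit, 5326 with the 2 groups alone and 3110 without the Krt5 libraries. The knock-in male count fell to 2 without normal replicate 1 and to 0 without the Krt5 libraries, which left 1 tumour library whose spread had to be taken from the other groups. In that fit 38 of all genes passed, where 3246 had, and the log2 fold changes were 2.14 for Il33, 3.46 for Il1rl1, 1.07 for Il1r1 and 1.41 for Il1a.

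**Figure D1:**
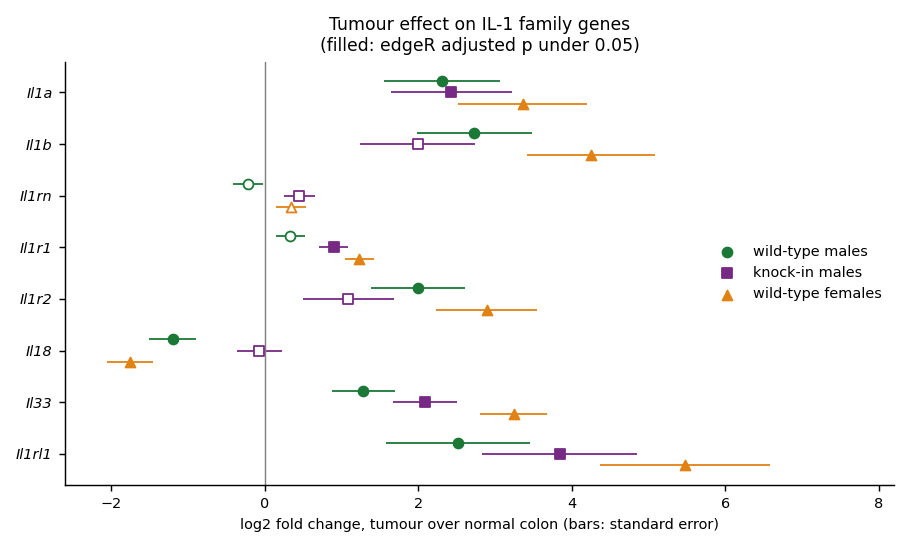
Log2 fold change of each IL-1 family gene between tumour and normal colon (x axis) with its standard error, for wild-type males, knock-in males and wild-type females (3 against 3 libraries each). Filled symbols passed the edgeR test. Il33 and Il1rl1 lie to the right of 0 in all 3 comparisons, Il18 lies to the left in the wild-type mice and Il1rn stays within 0.45 of 0.

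Il1a, the ligand that many cells hold preformed, was low throughout. Wild-type male normal libraries held 2.03, 4.04 and 0.298 CPM and the tumours 6.05, 22.7 and 5.34 CPM. Knock-in male normal libraries held 0.935, 0.380 and 2.51 CPM and the tumours 3.74, 10.3 and 6.17 CPM. Wild-type female normal libraries held 0.550, 2.09 and 0.929 CPM, against 15.8, 7.25 and 10.8 CPM in the tumours. The groups did not overlap in any of the 3 comparisons, and the knock-in female normal libraries, at 1.37, 1.46 and 0.613 CPM, lay within the range of the other normal colons. The log2 fold change was 2.31 (edgeR SE 0.76, adjusted p = 0.0256) in wild-type males, 2.43 (SE 0.79, adjusted p = 0.0383) in knock-in males and 3.36 (SE 0.84, adjusted p = 0.0031) in wild-type females. These levels rest on few reads: 4 of the 21 libraries held under 10 counts, and wild-type male normal replicate 3 held 3. In wild-type males the call was lost without normal replicate 1, normal replicate 3 or tumour replicate 2, and in knock-in males without normal replicate 1 or 2 or tumour replicate 2 or 3. The knock-in male call was also lost with no low-count filter and with the replicate number as a block. With only the compared groups it was lost too (edgeR adjusted p = 0.0767), while Il1b passed in that fit.

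Il1b, the ligand made mainly by activated myeloid cells, was the more abundant of the pair. It stood at 6.76, 13.9 and 1.39 CPM in wild-type male normal colon and at 31.0, 101 and 20.2 CPM in the tumours. In wild-type females the normal libraries held 3.21, 4.18 and 2.48 CPM and the tumours 102, 45.4 and 41.3 CPM. In knock-in males the normal libraries held 4.77, 3.80 and 7.18 CPM and the tumours 11.5, 25.6 and 25.1 CPM. Knock-in female normal libraries were at 4.52, 0.899 and 0.919 CPM. Tumour and normal libraries of each kind were apart, although knock-in male tumour replicate 1 lay below the highest wild-type male normal library. The log2 fold change was 2.73 (edgeR SE 0.75, adjusted p = 0.0105) in wild-type males, 4.25 (SE 0.83, adjusted p = 0.000551) in wild-type females and 1.99 (SE 0.75, adjusted p = 0.0705) in knock-in males, the last not past the threshold. DESeq2 (adjusted p = 0.0431) and a fit of the 2 groups alone (adjusted p = 0.0323) did pass knock-in males. In wild-type males the call was lost without tumour replicate 2, where Il1b was highest and the library smallest.

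Il1rn, which encodes the antagonist, had the narrowest range of the 8 genes, 2.13-fold from the lowest to the highest library. Wild-type males had a mean of 79.4 ± 9.58 CPM in normal colon and of 68.9 ± 17.9 CPM in tumours (SD, n = 3 each). For knock-in males the means were 69.4 ± 11.8 and 94.8 ± 15.7 CPM, and in wild-type females 81.2 ± 17.3 and 103 ± 15.8 CPM (SD, n = 3 each). Knock-in female normal colon was at 76.1 ± 10.8 CPM (SD, n = 3). The log2 fold change between tumour and normal colon was -0.22 (95% interval -0.61 to 0.17) in wild-type males, 0.45 (0.07 to 0.83) in knock-in males and 0.34 (-0.04 to 0.73) in wild-type females. The edgeR adjusted p-values were 0.415, 0.107 and 0.160, and none of the 3 intervals reached a change of 1 log2 unit.

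**Figure D2:**
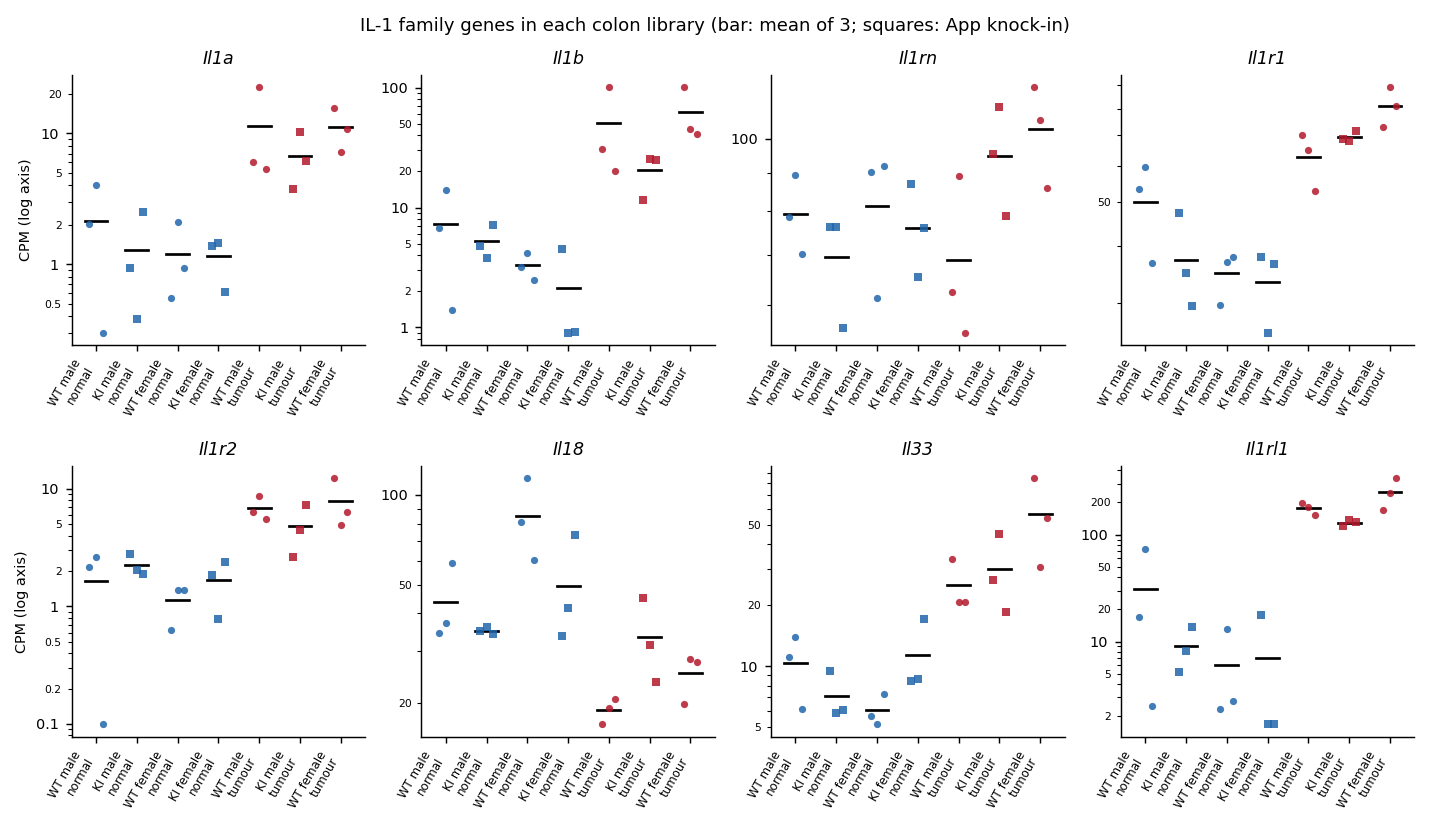
CPM (log axis) of the 8 genes in each of the 21 libraries, normal colon in blue and tumours in red, wild-type as circles and App knock-in as squares, with the mean of 3 as a bar. Every tumour library lies above every normal library for Il33 and Il1rl1, while Il1rn lies between 55.1 and 117 CPM throughout.

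Il1rn and Il1b were also set against each other within each library, as antagonist per ligand, and the ratio was lower in tumours. The ratio of Il1rn to Il1b CPM had a geometric mean of 14.8 in wild-type male normal colon (6.35 to 45.2 over 3 libraries) and 1.69 in the tumours (0.880 to 2.72). In wild-type females it was 23.6 (14.2 to 34.9) in normal colon and 1.77 (1.15 to 2.33) in tumours. In knock-in males it was 13.2 (7.63 to 19.3) in normal colon and 4.79 (3.13 to 8.18) in tumours, where the ranges overlapped. Knock-in female normal colon had the highest mean, 43.1 (18.6 to 70.3). These ratios are a description of 2 values already given, on log2 CPM with a prior count of 2, and were not tested on their own. They are not scaled to gene length, so they compare libraries and do not show which transcript was more abundant. Per kilobase of annotated exon, mean Il1b stood above Il1rn in wild-type male (26.7 against 12.4) and wild-type female tumours (32.9 against 18.6). In knock-in male tumours it stood below (10.9 against 17.1). The wild-type male mean of Il1b was 13.4 without tumour replicate 2. Lengths joined all annotated exons, 5535 bases for Il1rn and 1907 for Il1b, so this order depends on the annotation.

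Il1r1, the signalling receptor, varied little between replicates and rose in 2 of the 3 comparisons. Wild-type female normal libraries held 29.7, 36.9 and 37.8 CPM and the tumours 73.1, 89.4 and 81.2 CPM. Knock-in male normal libraries held 47.2, 34.9 and 29.5 CPM and the tumours 68.7, 67.8 and 71.6 CPM. Both pairs of groups were apart, with a log2 fold change of 1.23 (edgeR SE 0.19, adjusted p = 4.575e-05) in wild-type females and 0.90 (SE 0.19, adjusted p = 0.00501) in knock-in males. In wild-type males the groups overlapped, at 53.2, 59.6 and 36.7 CPM in normal colon and 70.1, 64.9 and 52.9 CPM in tumours (log2 fold change 0.33, edgeR SE 0.19, adjusted p = 0.192). Knock-in female normal libraries, at 37.9, 25.7 and 36.5 CPM, lay with the other normal colons. The co-receptor gene Il1rap, needed for signalling by both IL-1 and IL-33, passed the test in none of the 3 comparisons, with log2 fold changes of -0.50, 0.21 and -0.07 in wild-type males, knock-in males and wild-type females (edgeR adjusted p = 0.0774, 0.483 and 0.816).

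Il1r2, the decoy receptor, was the least abundant of the 3 receptor genes and rose in the wild-type mice. Wild-type male normal libraries held 2.17, 2.62 and 0.0995 CPM and the tumours 6.41, 8.73 and 5.53 CPM. The wild-type female libraries went from 0.634, 1.39 and 1.39 CPM in normal colon to 12.4, 4.91 and 6.42 CPM in tumours. In knock-in males the normal libraries (2.80, 2.03 and 1.90 CPM) and the tumours (2.65, 4.44 and 7.34 CPM) overlapped, and knock-in female normal colon had 1.85, 0.787 and 2.37 CPM. The log2 fold change was 2.0 (edgeR SE 0.61, adjusted p = 0.0161) in wild-type males, 2.89 (SE 0.66, adjusted p = 0.00142) in wild-type females and 1.09 (SE 0.59, adjusted p = 0.193) in knock-in males. The ratio of Il1r2 to Il1r1 CPM had a geometric mean of 0.0245 in wild-type male normal colon and 0.111 in the tumours, 0.0359 and 0.0922 in wild-type females, and 0.0649 and 0.0662 in knock-in males. The value of wild-type male normal replicate 3, where Il1r2 had 1 count, pulls the first of these means down.

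**Figure D3:**
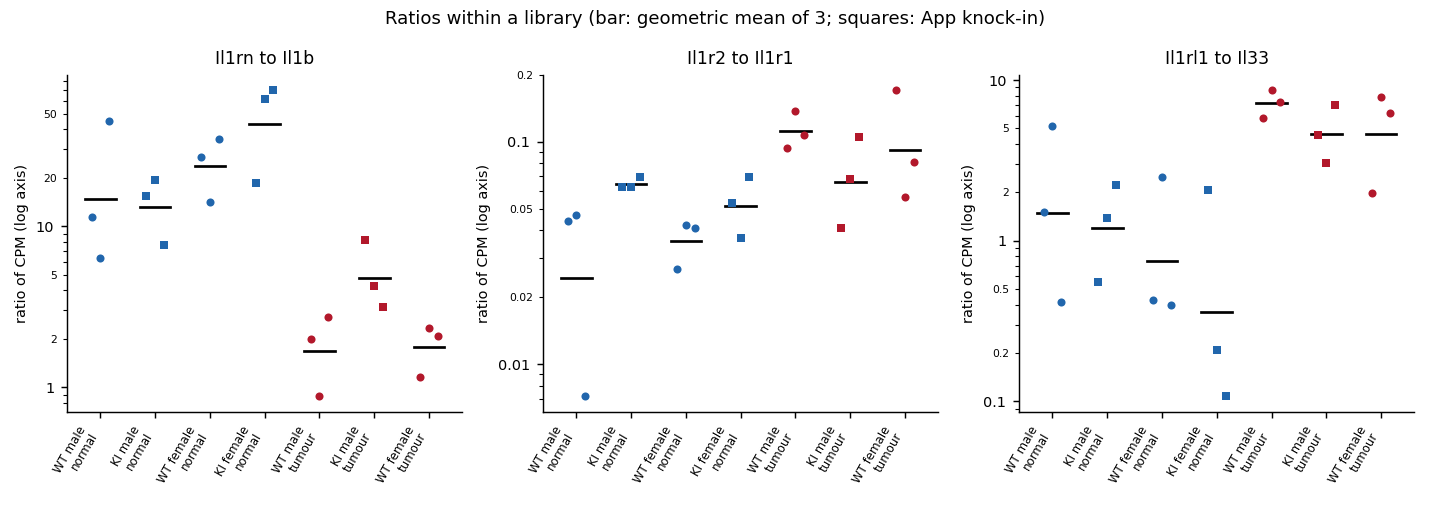
Ratio of Il1rn to Il1b, of Il1r2 to Il1r1 and of Il1rl1 to Il33 CPM, not scaled to gene length (log axes), in each of the 21 libraries, with the geometric mean of 3 as a bar, tumours in red and App knock-in as squares. The Il1rn to Il1b ratio is between 0.880 and 8.18 in tumours and between 6.35 and 70.3 in normal colon.

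Il33, the nuclear alarmin, separated tumours from normal colon completely. The 9 tumour libraries held from 18.4 to 84.8 CPM and the 12 normal libraries from 5.16 to 17.0 CPM. In wild-type males it rose from 11.1, 13.9 and 6.17 CPM to 33.8, 20.7 and 20.8 CPM (log2 fold change 1.28, edgeR SE 0.41, adjusted p = 0.0227). The change in knock-in males was from 9.44, 5.89 and 6.05 CPM to 26.7, 45.1 and 18.4 CPM (log2 fold change 2.09, edgeR SE 0.42, adjusted p = 0.00441). In wild-type females it was from 5.66, 5.16 and 7.28 CPM to 84.8, 30.8 and 54.0 CPM (log2 fold change 3.24, edgeR SE 0.44, adjusted p = 1.652e-05). The highest normal library was knock-in female normal replicate b, at 17.0 CPM, against 8.45 and 8.66 CPM in the other 2 of its group. In wild-type males the call was lost without normal replicate 1, normal replicate 3 or tumour replicate 1. The share of all genes whose tumour and normal libraries lay apart is not given here. Such separation is therefore not shown to be particular to Il33 or to the other genes described as apart.

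Il1rl1, which encodes the IL-33 receptor ST2, showed the largest log2 fold changes of the 8 genes in knock-in males and wild-type females. Tumours held from 121 to 338 CPM and normal libraries from 1.68 to 72.9 CPM, again without overlap. Normal colon varied widely: 17.0, 72.9 and 2.49 CPM in wild-type males, 2.33, 13.1 and 2.79 CPM in wild-type females, 5.14, 8.23 and 13.8 CPM in knock-in males and 17.7, 1.69 and 1.68 CPM in knock-in females. Tumours were closer together, at 198, 181 and 153 CPM in wild-type males, 122, 138 and 130 CPM in knock-in males and 169, 243 and 338 CPM in wild-type females. The log2 fold change was 2.52 (edgeR SE 0.94, adjusted p = 0.0471) in wild-type males, 3.84 (SE 1.01, adjusted p = 0.0175) in knock-in males and 5.47 (SE 1.11, adjusted p = 0.000865) in wild-type females. The wild-type male call was lost in 5 of the 6 fits that left out a replicate, all but the one without normal replicate 2, and in knock-in males without normal replicate 1. The ratio of Il1rl1 to Il33 CPM had a geometric mean of 1.49, 1.20, 0.750 and 0.361 in wild-type male, knock-in male, wild-type female and knock-in female normal colon, and of 7.19, 4.60 and 4.60 in wild-type male, knock-in male and wild-type female tumours.

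Il18 was the only one of the 8 genes called lower in tumours. Wild-type male normal libraries held 34.3, 37.1 and 59.3 CPM and the tumours 17.0, 19.2 and 20.7 CPM. In wild-type females it fell from 81.3, 114 and 60.4 CPM to 19.8, 28.2 and 27.5 CPM. These pairs of groups were apart, with log2 fold changes of -1.20 (edgeR SE 0.31, adjusted p = 0.00613) and -1.76 (SE 0.30, adjusted p = 0.000143) that kept their calls in every alternative run. In knock-in males the groups overlapped, at 35.0, 36.0 and 34.2 CPM in normal colon and 45.1, 31.3 and 23.5 CPM in tumours, and the log2 fold change was -0.07 (95% interval -0.65 to 0.51, edgeR adjusted p = 0.885). Without tumour replicate 3 of that group the value was 0.12. The tumour effect in knock-in males minus that in wild-type males was 1.13 log2 units (SE 0.42), and this test of the difference did not pass (edgeR adjusted p = 0.122), so the 2 effects are not shown to differ.

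Compared per kilobase of annotated exon, a scale on which genes can be set beside each other, Il18 was the most abundant of the 8 in each of the 4 normal colon groups, from 34.0 ± 0.908 CPM per kilobase in knock-in males to 82.6 ± 26.1 in wild-type females (SD, n = 3). Il1rn followed in each, from 12.5 ± 2.12 in knock-in males to 14.7 ± 3.12 in wild-type females (SD, n = 3). In wild-type female tumours the order was Il1rl1 (36.2 ± 12.3), Il1b (32.9 ± 17.7), Il18 (24.4 ± 4.50), Il33 (19.6 ± 9.38), Il1rn (18.6 ± 2.86) and Il1r1 (12.8 ± 1.28), with Il1a (5.70 ± 2.17) and Il1r2 (4.14 ± 2.06) lowest (CPM per kilobase, SD, n = 3). Neighbours in that order differed by less than the larger of their SDs except across the step from Il1rn to Il1r1 and the step from Il1r1 to Il1a. In wild-type male tumours the means of Il1b (26.7 ± 23.1) and Il1rl1 (25.8 ± 3.29) also stood above that of Il18 (18.4 ± 1.82), Il1b through tumour replicate 2 (without it the mean was 13.4), and in knock-in male tumours Il18 remained highest (32.3 ± 10.6) before Il1rl1 (18.8 ± 1.20). Lengths join all annotated exons, so a gene with long alternative ends is placed low.

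Markers of cells known to make or sense these cytokines were counted beside them. Of 10 neutrophil markers 9 were in the table, and their summed level was 2.29 to 25.0 CPM in normal libraries and 33.6 to 168 CPM in tumours, with no library of one kind inside the range of the other. The edgeR test passed 2, 0 and 7 of the 7 that could be tested as higher in tumours of wild-type males, knock-in males and wild-type females, and 0, 0 and 7 without the Krt5 libraries. The summed level of all 12 macrophage and monocyte markers overlapped, at 299 to 589 CPM in normal colon and 333 to 755 CPM in tumours, and 2, 0 and 4 passed as higher and 1, 0 and 1 as lower. In wild-type males 0 of them passed in either direction without the Krt5 libraries. All 10 mast cell markers were in the table, with sums of 58.0 to 104 CPM in normal colon and 38.0 to 139 CPM in tumours, and of the 9 tested 1, 0 and 4 passed as higher and 1, 1 and 1 as lower in the same 3 comparisons. Of all genes 16.5%, 10.4% and 25% were called higher and 19.3%, 9.97% and 24% lower. Without the Krt5 libraries 5 mast cell markers passed as higher and 1 as lower in wild-type males, and likewise 5 and 1 in wild-type females. The 10 markers of type 2 innate lymphoid and regulatory T cells summed to 49.3 to 74.6 CPM and 48.0 to 93.9 CPM. The mast cell and the lymphoid sums overlapped between tumours and normal colon, while the neutrophil sums did not. Markers of low level weigh little in such a sum. In wild-type females the mast cell gene Mcpt1 was at 0.310 to 1.95 CPM in normal colon and 7.95 to 9.37 CPM in tumours. Mcpt2 was at 0.465 to 1.115 CPM and 5.98 to 10.6 CPM there, while in males of both genotypes the 2 genes overlapped. These 2 genes were picked after their values were seen and do not stand for the list. The sum of all 10 mast cell markers in wild-type females was 67.9 to 98.4 CPM in normal colon and 59.4 to 80 CPM in tumours. Markers at 0 in a whole group were Mpo in wild-type female normal colon, Tpsab1 in both female normal groups, Fcer1a in knock-in female normal colon, and Il13 in wild-type male normal colon, knock-in female normal colon and knock-in male tumours. The part of any of these cells in the results was not tested. Squamous markers, all 10 detected, summed to 5.73 to 2300 CPM in normal libraries and 90.2 to 3903 CPM in tumours. Wild-type females, where no library exceeded 100 CPM of Krt5, had squamous sums of 7.69 to 10.9 CPM in normal colon and 90.2 to 217 CPM in tumours, without overlap. Of the 9 squamous markers tested there, 0 passed edgeR's test in the full fit, and 7 passed as higher with the 2 groups alone and 9 without the Krt5 libraries. The part of squamous tissue in the results was not tested.

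The knock-in allele was compared with wild type in males and in female normal colon. In male tumours 0 of 8 genes passed the edgeR test, where 14.5% of all genes did (9.3% up and 5.23% down in the knock-in), and 2 of 8 had an unadjusted p under 0.05. Those were Il18, higher by 0.82 log2 units in the knock-in tumours without overlap (edgeR SE 0.31, adjusted p = 0.0779), and Il1rn, at 0.47 (SE 0.20, adjusted p = 0.107). The other differences were -1.25 (SE 0.70) for Il1b, -0.68 (SE 0.72) for Il1a, -0.50 (SE 0.58) for Il1r2, -0.45 (SE 0.88) for Il1rl1, 0.25 (SE 0.40) for Il33 and 0.15 (SE 0.19) for Il1r1, with edgeR adjusted p-values from 0.229 to 0.749. Il1rl1 did not overlap either, at 121.5 to 138 CPM in the knock-in tumours and 153 to 198 CPM in the wild-type ones. DESeq2 passed Il18 (adjusted p = 0.0483), as did edgeR without knock-in tumour replicate 3 (adjusted p = 0.0439), and a fit of the 2 groups alone passed Il1rl1 only (adjusted p = 0.0432). Limma voom passed none. In male normal colon 0 of 8 passed, against 0.0126% of all genes, and 1 of 8 had an unadjusted p under 0.05 (Il1r1, log2 fold change -0.43, edgeR SE 0.19, adjusted p = 1). DESeq2 and limma voom passed none there either.

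In female normal colon 0 of 8 passed between knock-in and wild type, where 16% of all genes did (8.97% up and 7% down in the knock-in). Il18 was at 33.6, 41.6 and 73.3 CPM in the knock-in libraries, overlapping the wild-type values through 1 library, with a log2 difference of -0.78 (edgeR SE 0.29, adjusted p = 0.078). DESeq2 (adjusted p = 0.0451) and limma voom (adjusted p = 0.0138) passed it, as did edgeR without wild-type replicate 3 or without knock-in replicate b. Il33 was higher in the knock-in libraries without overlap, by 0.93 log2 units (edgeR SE 0.43, adjusted p = 0.153). The test of whether the genotype effect in normal colon differed between the sexes passed for 0 of 8 with edgeR, DESeq2 and limma voom, against 2.54% of all genes with edgeR. There 1 gene had an unadjusted p under 0.05, Il33 with a difference of 1.49 (edgeR SE 0.60, adjusted p = 0.204).

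Females and males were compared within a genotype. In wild-type normal colon 1 of 8 passed, Il18, higher in females by 0.97 log2 units without overlap (edgeR SE 0.29, adjusted p = 0.0328), where 15.9% of all genes passed, 5.74% higher and 10.2% lower in females. That call was lost without male replicate 1 or 2, without female replicate 1 or 2, in a fit of the 2 groups alone and without the Krt5 libraries. A further 2 genes had an unadjusted p under 0.05: Il1rl1 at -2.45 (edgeR SE 1.03, adjusted p = 0.117) and Il1r1 at -0.53 (SE 0.19, adjusted p = 0.0676). Both passed without male replicate 3 (adjusted p = 0.0396 and 0.0158), and limma voom passed both as well. In knock-in normal colon 0 of 8 passed, against 0.584% of all genes, and 0 had an unadjusted p under 0.05. DESeq2 and limma voom passed none there.

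In wild-type tumours 0 of 8 passed between the sexes, against 0.86% of all genes. All 8 edgeR estimates were higher in females (with DESeq2 Il1a was at -0.02), and 2 had an unadjusted p under 0.05: Il33, at 1.15 log2 units (edgeR SE 0.40, adjusted p = 0.121), and Il1rn, at 0.59 (SE 0.20, adjusted p = 0.111). DESeq2 passed none there and limma voom passed 3 (Il33, Il1rn and Il1r1). With a covariate for libraries numbered from 152 on, edgeR passed Il33 (1.73, adjusted p = 0.0489). The difference between the tumour effects, wild-type females minus wild-type males, was 1.96 log2 units for Il33 (edgeR SE 0.59, adjusted p = 0.118), 0.90 for Il1r1 (SE 0.27, adjusted p = 0.111) and 2.94 for Il1rl1 (SE 1.35, adjusted p = 0.351), each with an unadjusted p under 0.05. None of the 8 differences passed, against 1.12% of all genes. DESeq2 passed Il33 (adjusted p = 0.0232), and limma voom passed Il33, Il1r1 and Il1rl1 (adjusted p = 0.0444, 0.00661 and 0.0407). Without wild-type male normal replicate 3, edgeR passed Il33 and Il1r1 (adjusted p = 0.0496 and 0.0268). Between the genotypes in males, 0 of 8 differences of tumour effects passed with edgeR, DESeq2 and limma voom, against 1.51% of all genes with edgeR, with an unadjusted p under 0.05 for Il18 (above), Il1rn (0.67, edgeR SE 0.28, adjusted p = 0.152) and Il1r1 (0.57, SE 0.27, adjusted p = 0.19).

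Genes known to be induced by IL-1 in many cells were mostly higher in wild-type tumours. Of 20 listed genes 19 were tested, and 13 passed as higher in wild-type males, 4 in the knock-in and 16 in wild-type females, with none lower, against the shares of all genes given above (16.5%, 10.4% and 25% higher). In wild-type males the largest changes were in the neutrophil-attracting chemokine genes Cxcl2 (log2 fold change 3.45, edgeR SE 1.11, adjusted p = 0.0246) and Cxcl1 (3.16, SE 0.92, adjusted p = 0.0143), and in Mmp9, a matrix protease gene (3.06, SE 0.78, adjusted p = 0.00706). In knock-in males the 4 were Mmp3 (3.57, SE 0.93), Cxcl3 (3.45, SE 0.90), Saa3, an acute-phase gene (3.24, SE 1.03), and Ptgs2, which encodes the prostaglandin synthase COX-2 (2.63, SE 0.53), with edgeR adjusted p-values of 0.016, 0.0152, 0.037 and 0.00501. In wild-type females the leading genes were Lcn2 (6.16, SE 1.12), Il6 (6.02, SE 1.55), Saa3 (5.61, SE 1.20) and Cxcl3 (5.36, SE 1.01), with edgeR adjusted p-values of 0.000344, 0.0037, 0.00118 and 0.000336. Ptgs2, Cxcl3 and Saa3 passed in all 3 comparisons, and Ptgs2 went from 18.0 ± 11.1 to 96.7 ± 71.6 CPM in wild-type males, from 8.46 ± 3.27 to 52.6 ± 19.3 CPM in knock-in males and from 7.89 ± 2.49 to 102 ± 17.4 CPM in wild-type females (SD, n = 3). The count of 13 in wild-type males fell to 7 without normal replicate 1, to 6 without normal replicate 3 or tumour replicate 2, to 8 with the 2 groups alone and to 3 without the Krt5 libraries. The count of 4 in knock-in males ran from 0 without the Krt5 libraries to 7 with DESeq2, and was 2 without normal replicate 2 and 1 without tumour replicate 2.

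**Figure D4:**
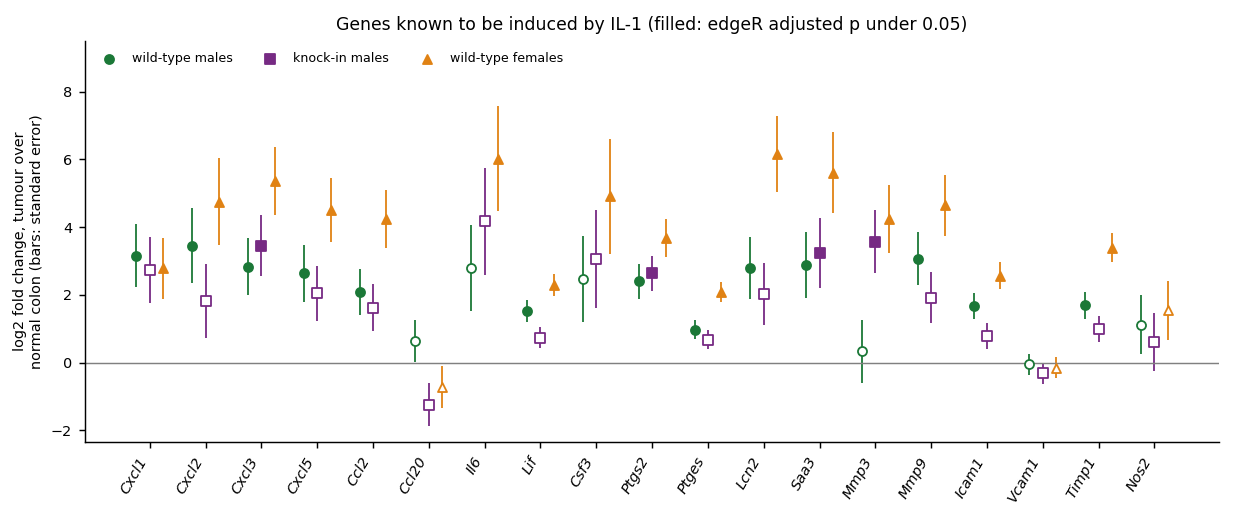
Log2 fold change between tumour and normal colon (y axis) with its standard error for 19 genes known to be induced by IL-1, in wild-type males (green circles), knock-in males (purple squares) and wild-type females (orange triangles). Filled symbols passed the edgeR test: 13, 4 and 16 of the 19.

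Genes of the MyD88 route downstream of the receptors moved by 1.00 log2 unit at most where they passed. Of 20 tested, 7 rose and 1 fell in wild-type male tumours, 4 rose in knock-in male tumours, and 8 rose and 2 fell in wild-type female tumours. With both directions together these calls are near the share over all genes, 35.7%, 20.4% and 49.1% in the same order. By direction, 16.5%, 10.4% and 25% of all genes were called higher and 19.3%, 9.97% and 24% lower, while the calls of the route were mostly higher. Whether this is particular to the route was not tested. The kinase gene Irak1 rose by 0.48 log2 units in wild-type males (edgeR SE 0.09, adjusted p = 0.000823) and by 0.69 in wild-type females (SE 0.09, adjusted p = 1.169e-05), while Irak4 fell by 0.48 and 0.62 (SE 0.13 each, adjusted p = 0.00787 and 0.00066). The NF-kB subunit gene Rela rose by 0.58 and 0.70 log2 units (edgeR SE 0.11 each, adjusted p = 0.00044 and 3.075e-05). In knock-in males the 4 that rose were Traf6 (0.54, SE 0.14), Tab3 (0.52, SE 0.14), Map3k7 (0.50, SE 0.10) and Chuk (0.49, SE 0.14), with edgeR adjusted p-values of 0.0125, 0.0151, 0.00459 and 0.0238, and none of these passed in wild-type males. The difference in tumour effect between knock-in and wild-type males passed the edgeR test for none of these 4, so the effects are not shown to differ. Between knock-in and wild-type male tumours, where 9.3% of all genes were called higher and 5.23% lower, 1 gene of the route was higher (Chuk, 0.52, edgeR SE 0.15, adjusted p = 0.0269) and 6 were lower, led by Nfkbia (-0.97, SE 0.28), Nfkb2 (-0.70, SE 0.13) and Irak2 (-0.52, SE 0.13), with adjusted p-values of 0.0308, 0.00452 and 0.0161. In wild-type males 8 calls fell to 5 without normal replicate 1 and to 4 without the Krt5 libraries, and in knock-in males 4 fell to 0 without those libraries or in a fit of the 2 groups alone, to 1 without normal replicate 3 and to 2 without tumour replicate 1 or 2. The 7 calls between the genotypes became 4 with the 2 groups alone, 2 and 3 without wild-type tumour replicate 2 and 3, 1 without knock-in tumour replicate 2 and 0 without the Krt5 libraries.

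Among genes that process IL-1 beta and IL-18, those that passed were mostly lower in tumours. Of 17 tested inflammasome genes, 1 rose and 7 fell in wild-type male tumours, 1 rose and 3 fell in knock-in male tumours, and 1 rose and 9 fell in wild-type female tumours. Of all genes 19.3%, 9.97% and 24% were called lower in these comparisons, and the 4 of 17 called in knock-in males are near the 20.4% called over all genes. Casp1, which encodes the caspase that cuts both cytokines, went from 65.5 ± 17.9 to 32.4 ± 4.88 CPM in wild-type males (log2 fold change -1.03, edgeR SE 0.23, adjusted p = 0.00231) and from 105 ± 16.3 to 38.5 ± 4.42 CPM in wild-type females (-1.45, SE 0.23, adjusted p = 5.371e-05), and did not pass in knock-in males (-0.33, SE 0.22, adjusted p = 0.307). Pycard, the adaptor ASC, fell in all 3, by 1.82 (SE 0.21), 0.60 (SE 0.20) and 1.49 log2 units (SE 0.20) in wild-type males, knock-in males and wild-type females (edgeR adjusted p = 8.865e-06, 0.0396 and 1.038e-05). Nlrp6, a sensor known from the colon epithelium, fell in the same order by 3.02 (SE 0.38), 1.46 (SE 0.36) and 3.16 log2 units (SE 0.38), with edgeR adjusted p-values of 3.194e-05, 0.0112 and 5.767e-06. Nlrp3, the sensor of myeloid cells, rose from 2.75 ± 2.14 to 13.1 ± 7.48 CPM in wild-type males (change 2.18, edgeR SE 0.57, adjusted p = 0.0068) and from 1.03 ± 0.341 to 10.2 ± 5.21 CPM in wild-type females (3.37, SE 0.65, adjusted p = 0.000326), and had a value of 0.39 in knock-in males (SE 0.56, adjusted p = 0.645). For neither Casp1 nor Nlrp3 did the difference in tumour effect between knock-in and wild-type males pass the edgeR test. The markers of differentiated colonocytes fell alongside: 6, 5 and 7 of the 7 in the table passed as lower in wild-type males, knock-in males and wild-type females, and their part in the fall of Il18 and Nlrp6 was not tested. In knock-in males 4 passed with the 2 groups alone. The summed colonocyte level overlapped there, at 964 to 1530 CPM in normal colon and 365 to 1198 CPM in tumours. The 4 calls in knock-in males fell to 2 without normal replicate 3 or tumour replicate 1, with limma voom, with the 2 groups alone and with the covariate for libraries numbered from 152 on, and to 0 without the Krt5 libraries. Between knock-in and wild-type male tumours 4 inflammasome genes were higher, Pycard (1.15, SE 0.20), Txnip (0.74, SE 0.18), Nlrc4 (0.64, SE 0.11) and Nek7 (0.62, SE 0.15), with edgeR adjusted p-values of 0.00422, 0.0144, 0.00401 and 0.0167. These 4 calls became 7 with DESeq2, 2 without wild-type tumour replicate 3 or knock-in tumour replicate 2, and 0 without the Krt5 libraries.

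**Figure D5:**
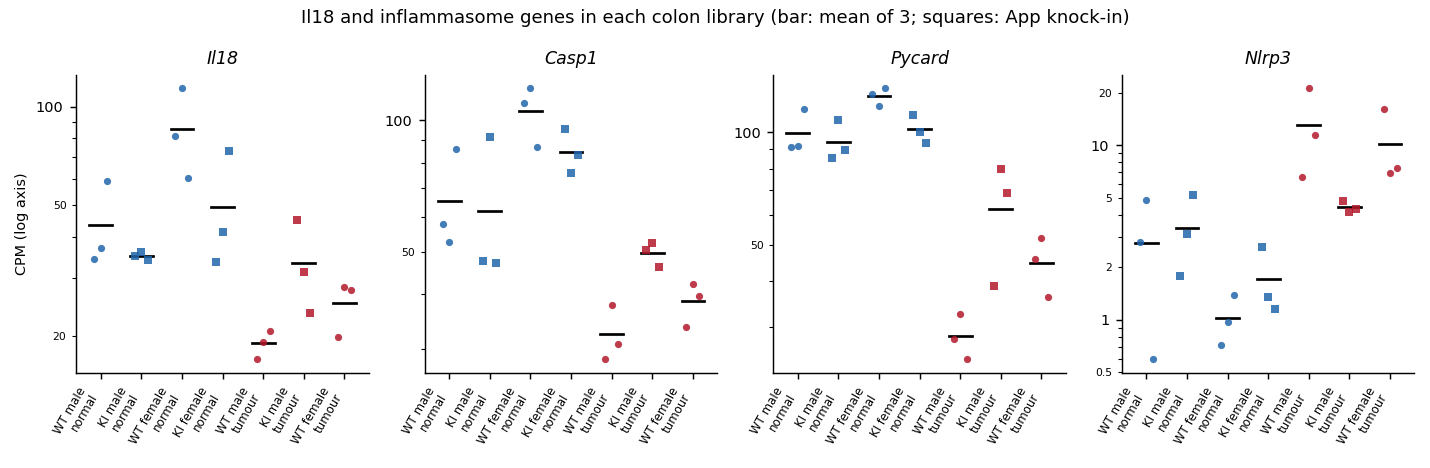
CPM (log axis) of Il18, Casp1, Pycard and Nlrp3 in each of the 21 libraries, normal colon in blue and tumours in red, wild-type as circles and App knock-in as squares, with the mean of 3 as a bar. The group means of Il18, Casp1 and Pycard are lowest in wild-type male tumours (19.0, 32.4 and 28.4 CPM), while that of Nlrp3 is highest there (13.1 CPM).

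Inflammasome genes also differed between normal colons. In wild-type mice 6 of 17 tested were higher in females than in males, against 5.74% of all genes, led by Nlrp1b (1.01, SE 0.21), Casp4 (0.95, SE 0.29), Casp1 (0.68, SE 0.22) and Nlrc4 (0.64, SE 0.11), with edgeR adjusted p-values of 0.00418, 0.0347, 0.0447 and 0.000893. Il18 was the family member called in that comparison, in the same direction. The 6 became 3 with library totals, without male replicate 2 or without female replicate 1, 2 without male replicate 1 or female replicate 2, and 1 without the Krt5 libraries. In female normal colon 5 of 17 were lower in the knock-in, against 7% of all genes, led by Casp4 (-1.15, SE 0.29), Nlrc4 (-0.70, SE 0.11), Nlrp1b (-0.70, SE 0.21) and Casp8 (-0.66, SE 0.14), with edgeR adjusted p-values of 0.0141, 0.000453, 0.0332 and 0.00509. The 5 became 3 without wild-type replicate 1 or 2, and 2 without knock-in replicate a or the Krt5 libraries. Both comparisons use the wild-type female normal libraries, and the colonocyte markers summed to 2433 to 5453 CPM there, 1369 to 3530 CPM in wild-type males and 2865 to 3681 CPM in knock-in females.

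Other family genes were mostly low. Of the remaining family genes, 13 were in the table and 7 could be tested. Of these 1, 2 and 3 passed in wild-type males, knock-in males and wild-type females, against 35.7%, 20.4% and 49.1% of all genes. The 1 became 2 with limma voom, with the 2 groups alone and with the library-number covariate. In knock-in males the 2 calls of these genes dropped to 0 without normal replicate 3, tumour replicate 3 or the Krt5 libraries and to 1 without normal replicate 2 or with the library-number covariate. Il18rap, the accessory chain of the IL-18 receptor, rose in all 3 comparisons, by 1.69 (SE 0.41), 1.47 (SE 0.40) and 2.34 log2 units (SE 0.43) in wild-type males, knock-in males and wild-type females (edgeR adjusted p = 0.00361, 0.017 and 0.000194), and its mean was 8.26 to 10.03 CPM in tumours and 2.05 to 2.98 CPM in normal colon. The binding chain Il18r1 did not pass (0.12, -0.32 and 0.28, edgeR adjusted p = 0.862, 0.606 and 0.629), nor did Il18bp, the secreted inhibitor of IL-18 (0.15, -0.18 and -0.62, adjusted p = 0.717, 0.684 and 0.0841). Sigirr, an inhibitory receptor, fell by 0.48 log2 units in knock-in males (edgeR SE 0.14, adjusted p = 0.0216) and by 0.56 in wild-type females (SE 0.14, adjusted p = 0.00268). Il1f9, the older symbol of the IL-36 gamma gene, rose from 0.261 ± 0.380 to 5.38 ± 2.37 CPM in wild-type female tumours (SD, n = 3, log2 fold change 4.61, edgeR SE 1.17, adjusted p = 0.00355). Il1f5, Il1f6, Il1f8 and Il1f10 averaged at most 0.394 CPM in every group.

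The genes whose log2 CPM followed each family member most closely over the 21 libraries were taken from 12779 genes with a mean of at least 50 counts in a group. Correlations of this kind share the library, its depth and the step between tumour and normal colon. For Il1a they were Clec4e (r = 0.962), Trem1 (0.948) and Cxcl3 (0.933), and for Il1b Nme1 (0.967), Trem1 (0.967) and Cxcl2 (0.963). Trem1 and Clec4e encode receptors of myeloid cells. Il1r2 was followed by Adam8 (0.911), Trem1 (0.911) and Dnajc6 (0.910), so Trem1 stood among the closest 3 of both ligands and of the decoy receptor. Il1rl1 was followed by Mmp10 (0.984), Saa3 (0.971) and Mmp13 (0.965), of which Mmp10 and Mmp13 encode matrix proteases. For Il1r1 the closest were Itgav (0.927), Desi2 (0.924) and Il11 (0.923), and for Il33 Pitrm1 (0.923), Csnk2a2 (0.911) and Nono (0.910). Il18 was followed by Pyroxd1 (0.953), Slc5a3 (0.952) and Hps5 (0.950). For Il1rn, which hardly varied, they were Ap4e1 (0.777), Fbxo30 (0.768) and Rap1b (0.765). With each group's mean taken out, r was 0.340 to 0.642 for the genes named for Il33 and 0.604 to 0.625 for those of Il1r1. For the Il1rn genes it was 0.565 to 0.778, and for those of the other members 0.743 to 0.950.

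Among the 8 genes themselves, Il1b and Il1rl1 (r = 0.94) and Il1a and Il1b (r = 0.92) were the closest pairs over the 21 libraries. After each group's mean was taken out, Il1a and Il1b still had r = 0.82 and Il1b and Il1rl1 r = 0.73. Il33 and its receptor gene Il1rl1 had r = 0.79 over all libraries and r = 0.07 within groups. Il18 ran against the others, with r from -0.76 (Il1b and Il1r2) to -0.11 (Il1rn). Within groups its values were between -0.55 (Il1b) and -0.10 (Il33).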

How the data were processed

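Per the labels' protocols, total RNA of 21 mouse colon samples was depleted of ribosomal RNA and read by Illumina NovaSeq. The deposited table holds raw counts per gene, made by the authors. The submitters' processing notes name Trimmomatic, HISAT2, featureCounts, DESeq2 and mm10, without versions. Annotation and strand setting are not given in the sources used here. Groups and replicate numbers come from the labels. In the table's header 2 knock-in female columns share a name and were used as unnumbered replicates a and b. The authors' DESeq2 table was not used.

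Libraries held 3414123 to 26174008 counts. CPM used TMM-scaled totals (3436173 to 23656704), and log2 CPM had 2 prior counts. Tests used edgeR 4.0.16's quasi-likelihood method (R 4.3.3) on all 21 libraries, after filterByExpr, with 1 coefficient per group, 9 pairs of groups and 3 interactions, Benjamini-Hochberg adjustment over 15936 genes and a threshold of 0.05. Standard errors and 95% intervals derive from the fold change and the F statistic. The script was tested on simulated data. No replicate pair agreed within sampling noise.

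The 8 members, the gene lists and the marker lists were chosen with earlier results of these data known. Named are all 8 members, up to 4 genes per list and comparison with the largest change past the threshold, Il1rap, Il18bp, Il18r1, Casp1 and Nlrp3, and the 3 most correlated genes per member. App, Krt5, Mcpt1, Mcpt2, overlapping genes, Il1f5, Il1f6, Il1f8 and Il1f10 fall outside this rule, as in some comparisons do Irak1, Irak4, Ptgs2, Cxcl3 and Pycard, and were named after their values were seen.

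Alternatives were DESeq2 1.42.0 size factors, library totals, no low-count filter, the DESeq2 Wald test, only the compared groups, limma 3.58.1 voom with quality weights, the replicate number as a block, libraries numbered 152 and above as a covariate and each replicate left out. Omission of libraries above 100 CPM of Krt5 was chosen after the data were seen. Same-numbered libraries deviated together in wild-type male tumour and normal colon (r = 0.169, 0.174 and 0.215), a hint of pairing, and in no other comparison did all 3 pairs exceed 0.1 (r from -0.3 to 0.461).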

Additional observations from a re-analysis of the deposited data

Results flagged for a closer look

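None of the 8 IL-1 family genes passed a test of a difference between effects, but 6 genes of the listed pathways did. The tumour effect differed between knock-in and wild-type males for Rela by -0.63 log2 units (SE 0.15, edgeR adjusted p = 0.0465), for Nfkb2 by -0.86 (SE 0.18, adjusted p = 0.0406), for Txnip, which binds thioredoxin and NLRP3, by 1.17 (SE 0.25, adjusted p = 0.0406) and for Pycard by 1.23 (SE 0.28, adjusted p = 0.0462). The effect of the knock-in on normal colon differed between females and males for Nlrc4 by -0.76 (SE 0.15, edgeR adjusted p = 0.0149) and for Sigirr by -0.78 (SE 0.19, adjusted p = 0.0393). In each case a difference of effects between groups is what singled the gene out. Apart from that of Nlrc4, these calls lie close to the threshold. Of all genes tested, 1.51% passed for the difference between the genotypes and 2.54% for that between the sexes. The 4 between the genotypes were lost with the replicate block (adjusted p = 0.0627 for Rela, 0.0548 for Nfkb2, 0.0571 for Txnip and 0.0627 for Pycard), in a fit of the compared groups alone, with the covariate for libraries numbered 152 and above, and without wild-type male normal replicate 3, any wild-type male tumour replicate, knock-in male normal replicate 1 or 3, knock-in male tumour replicate 2 or the Krt5 libraries. Without the Krt5 libraries the difference was 0.51 for Pycard, against -0.64 for Rela, -0.90 for Nfkb2 and 1.17 for Txnip. The call of Nlrc4 was lost without the Krt5 libraries, wild-type male replicate 1, wild-type female replicate 1 or knock-in female replicate a (adjusted p = 0.22, 0.0558, 0.0518 and 0.0545), and that of Sigirr in 8 of the fits that left out a replicate, with library totals, with no low-count filter, in a fit of the compared groups alone and without the Krt5 libraries.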

How the results depend on the processing

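Depth limits Il1a, Il1b and Il1r2 most, with 4, 1 and 3 libraries under 10 counts. With library totals in place of TMM scaling, the median log2 fold change of all genes in wild-type female tumours was 0.15 where it had been 0.01, and 7 of 8 genes passed. In wild-type females the count of 7 held under all 15 alternatives. In wild-type males 6 became 2 with only the compared groups, 1 without the Krt5 libraries and 3 to 6 without a replicate, and in knock-in males 4 became 0 without the Krt5 libraries and 2 to 4 without a replicate. Between genotypes in male tumours, 0 became 1 with DESeq2 and 1 with only the compared groups, and 0 to 1 without a replicate. In female normal colon 0 became 1 with DESeq2, 1 with limma voom and 0 to 1 without a replicate. Between the sexes in wild-type normal colon, 1 became 2 with DESeq2, 3 with limma voom, 0 with only the compared groups, 0 without the Krt5 libraries and 0 to 3 without a replicate. In wild-type tumours 0 became 3 with limma voom and 1 with the covariate for libraries numbered 152 and above. For the sex difference in tumour effects, 0 became 1 with DESeq2, 3 with limma voom and 0 to 2 without a replicate. The other 4 counts stayed at 0.

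Among fold changes of members in the 3 tumour comparisons and between genotypes in male tumours, 3 that had not passed changed sign. Il18 in knock-in males (-0.07) ran from -0.40 to 0.12 without a replicate and was 0.34 without the Krt5 libraries. Between genotypes in male tumours, Il1a (-0.68) was 0.03 with limma voom and ran from -1.16 to 0.24 without a replicate, and Il33 (0.25) ran from -0.19 to 0.50. The cause was not tested.

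A replicate block in the fit passed 6, 3 and 7 of 8 genes in tumours of wild-type males, knock-in males and wild-type females, Il1a being lost in knock-in males, and 1 (Il18) between the sexes in wild-type normal colon. The block moved no count of the 8 genes by over 1.5 times. Outside wild-type male tumour and normal colon, same-numbered libraries did not deviate together in all 3 pairs. That does not exclude pairing, and whether any libraries share an animal is not given in the sources used here. No paired analysis was possible for knock-in females because 2 of the 3 columns carry no number of their own.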
